A study of Mus musculus with 3 samples.

Results

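Open chromatin at Runx1, Runx2, Runx3 and Cbfb was described in 3 fractions of mouse CD4+ T cells that were sorted from colon-draining lymph nodes during chemically induced colitis. A region counted for one of these 4 genes when it was the nearest RefSeq protein-coding gene span within 100 kb. Regions were made by merging peaks of the 3 libraries that shared at least 1 bp. The rule used position alone and gave 74 of 57457 regions: 33 at Runx1, 20 at Runx2, 18 at Runx3 and 3 at Cbfb. The divided fraction was CBir1 T cells, which carry a transgenic receptor for a bacterial flagellin, that had diluted the dye CellTrace Violet. The undivided fraction was CBir1 T cells that had kept the dye, and the polyclonal fraction was the total CD4+ T cells of the recipients without the transgenic receptor. CBir1 cells were taken as naive CD4+ cells from the spleens of CBir1 transgenic mice and given to 4 WT C57BL/6J recipients. All 3 fractions came from mice that drank 2% dextran sulfate sodium (DSS), a colon irritant, for 7 days. All recipients also got FTY720 (1 mg/kg), a drug that holds lymphocytes in lymph nodes, with doses on days 7, 10 and 13 counted from the start of DSS, and nodes were collected on day 14. No source used here gives the age or sex of the mice. The labels describe duplicate pools of 2 mice, and 1 peak list for each fraction was analysed here. No library without DSS or FTY720 was analysed here, the polyclonal cells were not selected by division or by naive state, and dye loss marks division without its date.

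RUNX proteins bind DNA through their Runt domain. Cbfb encodes CBFβ, which does not itself touch DNA but strengthens the binding of every RUNX protein as its partner. RUNX1 is needed for thymocyte development and represses Cd4 in early thymocytes, RUNX3 silences Cd4 in CD8 T cells and acts with T-bet in Th1 cells, and RUNX2 is best known as the regulator of bone-forming osteoblasts. Each Runx gene is transcribed from a distal promoter, P1, and a proximal promoter, P2, which give proteins that differ at their amino terminus.

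The assay was ATAC-seq, whose transposase cuts and tags open DNA. Signal is given as the summit pileup, the number of fragments stacked at the highest base of a peak, recovered from the deposited fold and p-value. There was 1 library per fraction, so differences stand without replicates and p-values were not computed. The 95% intervals of pileups and ratios cover counting error only, and the labels name no molecular identifiers that would mark each fragment. The lists held 47963 divided, 41876 undivided and 44426 polyclonal peaks, with median summit pileups of 31, 30 and 27 fragments. Pileups in regions called in all 3 lists were typically 1.21 times as high in divided as in undivided cells and 1.19 times as high in divided as in polyclonal cells. Scaled ratios are divided by these medians. The median pileup ratio of undivided to polyclonal cells was 0.989. By the lowest local background, another measure of depth, the divided library exceeded the undivided one 1.496-fold and the polyclonal one 1.40-fold. All 8 T cell marker genes had a peak near a gene end in each library. The B cell list had such a peak at 3 of 8 genes in divided cells, 1 in undivided cells and 2 in polyclonal cells. Cd79a had one in every library, Ebf1 in divided and polyclonal cells, and Blk in divided cells only. The rest of the list, Ms4a1 among them, had none in any library. The osteoblast and stromal list had one at 2 of 6 genes in divided cells, 2 in undivided cells and 3 in polyclonal cells. Col1a1 and Sp7 had one in every library and Pdgfra in polyclonal cells only. Col1a2 had none, nor had Bglap and Ibsp, which encode bone matrix proteins. The myeloid list had one at 2 of 6 genes in divided cells, 3 in undivided cells and 3 in polyclonal cells, and the NK and innate lymphoid list at 1 of 4 (Id2) in each library. Cd8b1 had such a peak and Cd8a had none in each library. The part of other cell types in the results was not tested.

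The 3 Runx genes had many open regions around them and Cbfb had few. Runx1 had 33 regions, and 29 of the 15631 genes with a region had more. Runx2 with 20 regions and Runx3 with 18 were also far above the median of 2 regions per gene. Runx1 held 24 of its regions inside its span of 225 kb, or 10.7 per 100 kb, with 6 upstream and 3 downstream. Runx3, a gene of 57.4 kb, held 6 inside its span, or 10.46 per 100 kb, and 11 upstream. Runx2 held 19 of 20 inside its span of 319 kb, or 5.96 per 100 kb. Cbfb held its 3 regions inside its span of 47.3 kb, or 6.34 per 100 kb, so per length it was close to Runx2. Thus the upstream side held most of the regions counted for Runx3 and none of those counted for Runx2. Supt3, another protein-coding gene, overlaps the 5′ part of Runx2. Under this rule a region inside Supt3 but outside Runx2 goes to Supt3. The lack of upstream Runx2 regions is therefore no measure of open chromatin there. A long gene can collect more regions under a nearest-span rule, which is why the density is given.

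Of the 74 regions, 36 were called in all 3 libraries (48.6%, Wilson 95% interval 37.6 to 59.8), beside 56.9% of all regions. That interval treats the regions as independent draws, although they neighbour each other at the same genes in the same libraries. It is therefore no measure of how far the members differ from all regions. The all-3 regions numbered 16 at Runx1, 9 at Runx2, 10 at Runx3 and 1 at Cbfb. A peak was present at 59 member regions in divided cells, 49 in undivided cells and 52 in polyclonal cells. Of all 57457 regions, 47242 had a peak in divided cells, 40871 in undivided cells and 43335 in polyclonal cells, so the order was the same. In all, 12 member regions were called in divided cells alone, 6 in undivided cells alone and 6 in polyclonal cells alone. These were 16.2%, 8.11% and 8.11% of the 74 regions, beside 14.3%, 6.3% and 7.49% of all regions. The members' spread over the libraries was thus near that of all regions. The median pileup of called regions was 37 in divided cells, 28 in undivided cells and 30 in polyclonal cells at Runx1. At Runx3 it was 49 in divided cells, 54 in undivided cells and 44 in polyclonal cells, the highest of the 3 Runx genes in each library. The median width was 528.5 bp for member regions and 531 bp for all regions.

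**Figure D1:**
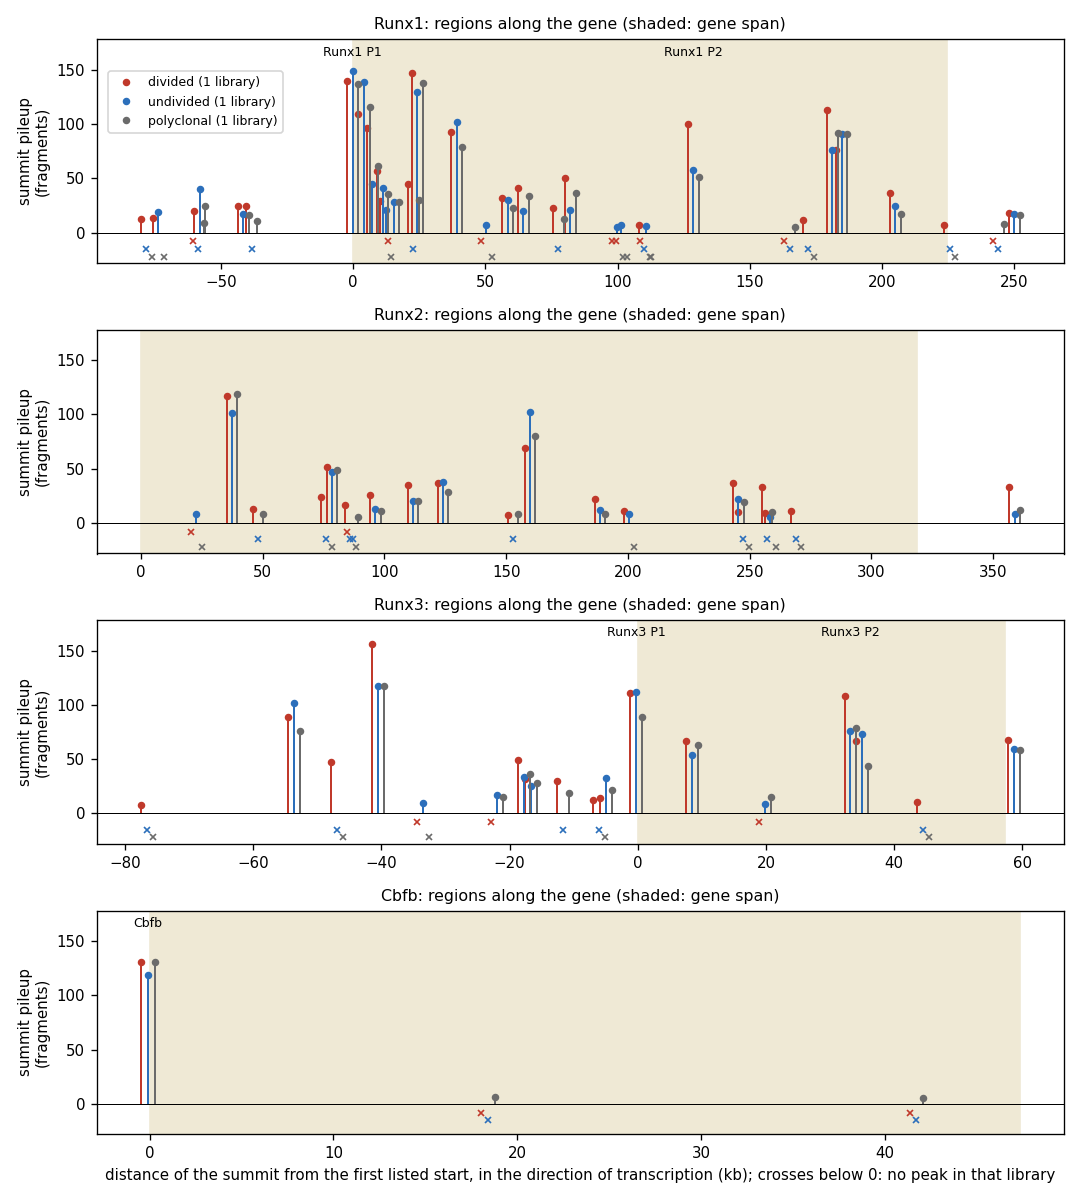
Summit pileup (fragments) of each library's peak of highest −log10 q in every region at Runx1, Runx2, Runx3 and Cbfb. It is set against the distance (kb) from the gene's most upstream RefSeq start in the direction of transcription. Points of the 3 libraries are set slightly side by side, crosses mark a library with no peak, and the gene span is shaded. Runx3 regions stand mostly left of its start, with the highest at 156 fragments in divided cells 40.6 kb upstream. Of the Runx2 regions 19 of 20 stand inside the gene, where the rule gives regions in the overlapping Supt3 but outside Runx2 to Supt3.

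The promoter sequences are shown first, since the P1 and P2 windows differed in their bases. All 4 genes matched the RefSeq promoter table of GRCm38.p6, with 2 starts for Runx1, 2 for Runx3, 1 for Runx2 and 1 for Cbfb. The starts of Runx1 and Runx3 are called P1 and P2 by position, and the listed Runx2 start is the distal one. The 3 P1 windows share a stretch of 18 bases that holds a pair of RUNX motifs. The motif searched was TGTGGT or TGCGGT on both strands, so that ACCACA and ACCGCA are matches too. In the 30-base sites below, written 5′ to 3′ on the strand of the gene, capitals mark the RUNX matches.
Runx1 P1 site (chr16:92826025-92826054, minus strand): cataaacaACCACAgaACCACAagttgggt
Runx2 P1 site (chr17:44814581-44814610, minus strand): caaacaACCACAgaACCACAagTGCGGTgc
Runx3 P1 site (chr4:135120505-135120534, plus strand): ccctcaACCACAgaACCACAaggccaggcc

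The shared stretch occurred in 4 of 32851 promoter windows, those of Runx1, Runx2, Runx3 and Gm16225, whose window overlaps that of Runx3. It began 27 bases after the Runx1 start and 22 bases after the Runx2 start, but 136 bases before the Runx3 start. Over the whole window of 250 bases before to 50 bases after the start, RUNX matches numbered 2 at Runx1 P1, 4 at Runx2 P1 and 2 at Runx3 P1. At least 1 match was found in 22.4% of all promoter windows and at least 2 in 2.86%. The P2 windows of Runx1 and Runx3 and the Cbfb window had 0. A match describes the letters and shows no binding.

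The windows also differed in CpG content. The 250 bases upstream of each start that a merged region covered follow, 5′ to 3′ on the strand of the gene, with CpG in capitals.
Runx1 P1 (chr16:92826075-92826324, minus strand): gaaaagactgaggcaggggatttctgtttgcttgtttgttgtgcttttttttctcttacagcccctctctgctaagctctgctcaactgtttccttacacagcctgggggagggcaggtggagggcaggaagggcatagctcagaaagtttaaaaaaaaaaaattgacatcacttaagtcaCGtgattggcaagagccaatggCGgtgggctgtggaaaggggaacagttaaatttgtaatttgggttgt
Runx1 P2 (chr16:92697330-92697579, minus strand): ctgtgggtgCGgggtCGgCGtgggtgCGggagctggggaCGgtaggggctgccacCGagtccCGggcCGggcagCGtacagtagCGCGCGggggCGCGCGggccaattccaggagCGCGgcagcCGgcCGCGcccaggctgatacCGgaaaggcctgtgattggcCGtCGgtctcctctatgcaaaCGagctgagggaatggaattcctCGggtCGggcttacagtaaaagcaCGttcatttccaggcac
Runx3 P1 (chr4:135120395-135120644, plus strand): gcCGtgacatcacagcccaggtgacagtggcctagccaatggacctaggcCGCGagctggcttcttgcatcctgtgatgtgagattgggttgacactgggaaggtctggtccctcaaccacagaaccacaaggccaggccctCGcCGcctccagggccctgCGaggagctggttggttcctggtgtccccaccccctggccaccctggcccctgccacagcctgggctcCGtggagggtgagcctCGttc
Runx3 P2 (chr4:135152295-135152544, plus strand): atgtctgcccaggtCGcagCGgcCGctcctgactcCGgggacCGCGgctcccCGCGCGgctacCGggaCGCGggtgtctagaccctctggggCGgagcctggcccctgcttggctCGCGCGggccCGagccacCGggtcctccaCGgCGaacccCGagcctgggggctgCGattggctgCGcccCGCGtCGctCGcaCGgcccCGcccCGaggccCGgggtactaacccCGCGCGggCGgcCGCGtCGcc
Cbfb (chr8:105170424-105170673, plus strand): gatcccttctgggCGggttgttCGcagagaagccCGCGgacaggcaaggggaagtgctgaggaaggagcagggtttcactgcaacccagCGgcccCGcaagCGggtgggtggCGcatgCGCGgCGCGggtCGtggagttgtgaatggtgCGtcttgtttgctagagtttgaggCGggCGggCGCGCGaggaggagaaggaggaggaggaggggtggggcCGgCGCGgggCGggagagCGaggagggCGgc
The 300-base windows held 2 CpG at Runx1 P1 and 8 at Runx3 P1, against 35 at Runx1 P2, 45 at Runx3 P2 and 30 at Cbfb. The median over all promoter windows was 7, so both P2 windows and Cbfb are CpG-rich and Runx1 P1 is CpG-poor. Runx2 P1 also held 2. The ETS motif CCGGAA, found in 14.9% of windows, had 1 match at Runx1 P2 and in none of the other windows of the 4 genes. The AP-1 motif TGACTCA or TGAGTCA (5.20% of windows) and TATAAA (13.6%), each searched on both strands, had 0 matches in them.

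Runx1, the DNA-binding member needed for T cell development, had a peak in every library in both regions that cover its listed starts. Starts were matched to merged regions, so whether each library's own peak reached the start was not checked. The P1 region (chr16:92824920-92826524) had summit pileups of 140 fragments in divided cells, 149 in undivided cells and 137 in polyclonal cells. The 95% intervals were 118 to 165 in divided, 126 to 175 in undivided and 115 to 162 in polyclonal cells, and they overlapped. After scaling, divided over undivided was 0.779 (0.614 to 0.988) and divided over polyclonal was 0.859 (0.674 to 1.10). Its pileup exceeded that of 91.5% of peaks in the divided list, 94.9% in the undivided list and 93.4% in the polyclonal list. Scaled by background the ratios were 0.628 (0.495 to 0.796) and 0.732 (0.574 to 0.933), and both intervals excluded 1. Runx1 P1 was thus strongly open in every fraction, and in the scaling by shared regions lower in divided than in undivided cells by little more than counting error.

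The Runx1 P2 region (chr16:92696738-92699016) differed more. Its summit pileup was 100 fragments in divided cells (81.4 to 122), 58 in undivided cells (44.0 to 74.98) and 51 in polyclonal cells (38.0 to 67.1). The divided value stood above both others, whose intervals overlapped. Scaled divided over undivided was 1.43 (1.02 to 2.01) and divided over polyclonal 1.65 (1.17 to 2.36). Scaled by background these ratios were 1.15 (0.826 to 1.62) and 1.40 (0.993 to 2.01), and both intervals then included 1. A larger share of open cells and more open chromatin per cell cannot be told apart in these pools. The summit itself lay at a different place: 176 bases before the P2 start in divided cells, against 1424 bases in undivided and 1456 bases in polyclonal cells. The pileups of Runx1 P2 were thus not taken at the same base, and each library had a single peak in the region of 2279 bp. A spread of summits of at least 1000 bp was seen in 1 of the 36 member regions called in all 3 libraries and in 115 of 32680 such regions (0.352%). Only a region wider than 1000 bp can show such a spread, and the median width of all 57457 regions was 531 bp. The share among regions as wide as that of Runx1 P2 was not computed. Median spreads were 49.5 bp over the members and 55 bp over all regions.

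Within a library, where depth cancels, the ratio of the P2 to the P1 summit pileup of Runx1 was 0.714 (0.547 to 0.930) in divided, 0.389 (0.282 to 0.531) in undivided and 0.372 (0.264 to 0.517) in polyclonal cells. The divided interval did not overlap the others. The pileup of the P2 region was thus closer to that of P1 in divided cells, and below it in every library.

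Runx3, the DNA-binding member tied to cytotoxic and Th1 programmes, also had a peak in every library in both regions that cover its listed starts. The P1 region (chr4:135120078-135120725), which also covers the start of the neighbouring Gm16225, had 111 fragments in divided cells, 112 in undivided cells and 89 in polyclonal cells. The P2 region (chr4:135152031-135154572) had 108 fragments in divided cells, 76 in undivided cells and 79 in polyclonal cells. Its summit lay 1262 bases after the P2 start in divided cells, 1257 in undivided cells and 1231 in polyclonal cells. The summit was thus past the start in all 3 libraries, and whether each library's own peak reached the start was not checked. Scaled ratios of divided over undivided were 0.822 (0.626 to 1.08) at P1 and 1.18 (0.871 to 1.602) at P2, and both intervals included 1. Scaled by background the P1 ratio was 0.662 (0.505 to 0.869), whose interval excluded 1. The P2-to-P1 ratio of Runx3 was 0.973 (0.740 to 1.28) in divided, 0.679 (0.5003 to 0.916) in undivided and 0.888 (0.647 to 1.21) in polyclonal cells. These intervals overlapped, so no order of the fractions was detectable at this depth.

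Cbfb, which encodes the partner of all 3 RUNX proteins, had a single strong region at its start (chr8:105170171-105171892). Its summit pileup was 131 fragments in divided cells, 119 in undivided cells and 131 in polyclonal cells. The scaled ratios were 0.913 (0.707 to 1.18) for divided over undivided, 0.841 (0.655 to 1.08) for divided over polyclonal and 0.919 (0.711 to 1.19) for undivided over polyclonal. Every interval included 1, so no difference in Cbfb was detectable at this depth. Scaled by background, divided over undivided was 0.736 (0.570 to 0.951) and divided over polyclonal 0.716 (0.558 to 0.920), and both intervals then excluded 1. This scaling put intervals below 1 at 26.2% and 18.4% of all shared regions in these comparisons. The other 2 Cbfb regions, inside the gene, had a peak in polyclonal cells only, with pileups of 6 (chr8:105188940-105189160) and 5 (chr8:105212290-105212501). The lowest pileup of any peak was 6 in divided cells, 5 in undivided cells and 5 in polyclonal cells, so these stood at the edge of what was called.

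Runx2, the member known from bone, had no peak over its listed P1 start (chr17:44814578-44814877) in any library. No proximal start is listed for Runx2, so its P2 was not placed and its openness there is not described. The region nearest to P1 (chr17:44791826-44792294) lay 22.8 kb into the gene. It had a pileup of 8 in undivided cells, with no peak in divided or polyclonal cells. The Runx2 region with the highest −log10 q in any library (chr17:44776662-44777809) had 117 fragments in divided cells, 101 in undivided cells and 119 in polyclonal cells. It lies 37.5 kb into Runx2 and also inside Supt3, a gene for a transcription coactivator subunit, whose listed start it covers. The next (chr17:44654425-44655159), 160 kb into Runx2, had 69 fragments in divided cells, 102 in undivided cells and 80 in polyclonal cells. In undivided cells its −log10 q was the higher, at 97.5 against 86.5. It was lower in divided cells, at a scaled ratio of 0.561 over undivided cells (0.407 to 0.769). The third (chr17:44690249-44691105) had 37 fragments in divided cells, 38 in undivided cells and 29 in polyclonal cells. The median pileup of called Runx2 regions was 25 in divided cells, 16.5 in undivided cells and 12 in polyclonal cells, below the list medians of 31, 30 and 27, so most Runx2 regions were weak. Only called regions enter these medians, and divided cells had 18, against 12 in undivided and 13 in polyclonal cells.

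**Figure D2:**
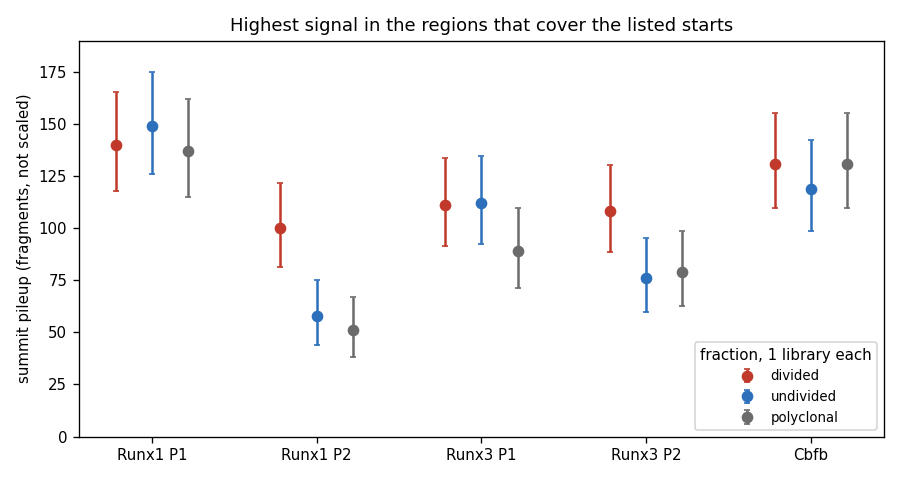
Summit pileup (fragments) with exact Poisson 95% intervals in divided, undivided and polyclonal cells, with 1 library per point. Values are from the peak of highest −log10 q in each region that covers a listed start. For Runx1 P2 they are not from the same base in the 3 libraries. Divided cells stand higher at Runx1 P2 (100, against 58 in undivided and 51 in polyclonal cells), while Cbfb lies between 119 and 131, and Runx2 P1, which has no peak, is not drawn.

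The strongest regions away from promoters were shared by all fractions. The Runx1 region 24.3 kb into the gene (chr16:92801387-92802206) had 147 fragments in divided cells, 130 in undivided cells and 138 in polyclonal cells. A second Runx1 region 39.1 kb into the gene (chr16:92786501-92787370) had 93 in divided cells, 102 in undivided cells and 79 in polyclonal cells. The highest pileup of any member region in any library lay 40.6 kb upstream of Runx3 (chr4:135079831-135080784), with 156 fragments in divided and 117 in each of undivided and polyclonal cells. In undivided and polyclonal cells Runx1 P1 was higher. A further Runx3 region, 53.7 kb upstream (chr4:135066534-135067448), had 89 fragments in divided cells, 102 in undivided cells and 76 in polyclonal cells. Its scaled ratio of divided over undivided was 0.724. Both of these distal Runx3 regions were of the order of the Runx3 promoters. Another 2 regions lay within 1 kb of a gene's last base. At Runx3 (chr4:135178897-135179598) the pileups were 68 in divided cells, 59 in undivided cells and 58 in polyclonal cells, and at Runx1 (chr16:92600346-92600519) a peak of 7 was called in divided cells only.

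Divided against undivided CBir1 cells differ in whether the same transgenic T cells had divided in the host. A region was called one-sided when its peak had a −log10 q of at least 5 in one list and the other list held no peak in the region at all. A missing peak is no measurement of 0. In divided cells 11 of 74 member regions (14.9%) were one-sided against undivided cells, beside 12.4% of all regions. In the other direction 3 (4.05%) were one-sided for undivided cells, beside 4.94% of all regions. Both shares were near those of the genome. By gene, divided-only and undivided-only regions numbered 5 and 1 at Runx1, 4 and 0 at Runx2, 2 and 2 at Runx3, and 0 and 0 at Cbfb.

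The clearest of these regions lay 47.0 kb upstream of Runx3 (chr4:135073439-135073867). It had 47 fragments in divided cells, with a −log10 q of 32.7, and no peak in undivided or polyclonal cells. Another Runx3 region 11.7 kb upstream (chr4:135108652-135109138) had 30 fragments in divided and 19 in polyclonal cells and no peak in undivided cells. Runx3 regions also went the other way. The region 22.0 kb upstream (chr4:135098405-135098790) had 17 fragments in undivided and 15 in polyclonal cells, and the one 19.9 kb into the gene (chr4:135140230-135141260) had 9 in undivided and 15 in polyclonal cells, and neither had a peak in divided cells. At Runx3 the divided-only and undivided-only regions were thus equal in number.

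At Runx2 all 4 one-sided regions were on the divided side, or 20% of its 20 regions, beside 12.4% of all regions. Of all one-sided regions in this comparison, 71.6% were on the divided side. The strongest (chr17:44557107-44557681), deep in the gene, had 33 fragments in divided and 10 in polyclonal cells and no peak in undivided cells. The next (chr17:44728419-44728809) had 17 fragments in divided cells alone. Another (chr17:44766345-44766873) had 13 in divided and 8 in polyclonal cells, and the last (chr17:44545385-44545663) had 11 in divided cells alone. With pileups of 11 to 17, 3 of these 4 were below the median peak of the divided list.

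At Runx1 the 5 regions on the divided side had between 12 and 45 fragments in divided cells. The highest (chr16:92803213-92803475), 22.7 kb into the gene, had 45 in divided and 30 in polyclonal cells. Those at chr16:92864393-92865018, 38.4 kb upstream, and chr16:92748364-92748631 had 25 and 23 fragments in divided cells, against 11 and 13 in polyclonal cells. Those at chr16:92904043-92904402 and chr16:92653933-92654149 had 13 and 12 fragments in divided cells alone. The 1 region on the undivided side (chr16:92810681-92811067) had 28 fragments in undivided and 28 in polyclonal cells. It lay 15.3 kb into the gene.

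Depth touched these counts. When each divided peak was scaled down to the depth of the undivided list and had to reach the same −log10 q of 5, 9 of the 11 divided-only regions remained after scaling by shared regions and 8 after scaling by background. The 3 undivided-only regions remained in both. Over all regions the divided-only count against undivided cells went from 7145 to 5242 by shared regions and to 4157 by background. The counts after scaling are 9.12% and 7.23% of all 57457 regions, and are not shares of the divided-only regions. The regions lost in both were chr16:92653933-92654149 at Runx1 and chr17:44545385-44545663 at Runx2. The Runx1 region chr16:92904043-92904402 was lost by background only.

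**Figure D3:**
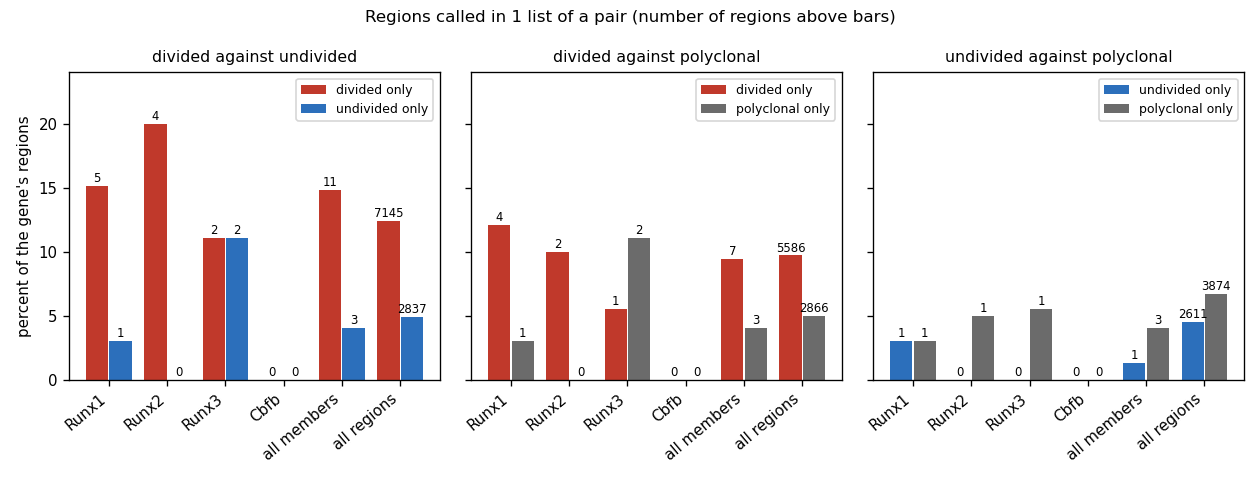
Percentage of regions that were one-sided (−log10 q of at least 5 in one library and no peak in the other) in each direction of the 3 comparisons, for each gene, the 4 genes together and all regions, with the number of regions above each bar. The 4 genes together stand near all regions in divided against undivided cells, at 14.9% against 12.4%.

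Divided against polyclonal cells set the dividing transgenic cells beside the recipients' own CD4+ cells. In divided cells 7 of 74 regions (9.46%) were one-sided, beside 9.72% of all regions, and 3 (4.05%) were so in polyclonal cells, beside 4.99% of all regions. The split was 4 and 1 at Runx1, 2 and 0 at Runx2, 1 and 2 at Runx3, and 0 and 0 at Cbfb. Of the 7 regions, 5 had been called in divided cells alone. The others were a pair of Runx1 regions shared by both CBir1 fractions. The one 12.4 kb into the gene (chr16:92813459-92813768) had 29 fragments in divided and 21 in undivided cells, and the one 73.8 kb upstream (chr16:92899792-92900305) had 14 in divided and 19 in undivided cells. The 3 polyclonal-only regions were the Runx1 and Runx3 regions that divided cells lacked against undivided cells too. Divided cells enter both comparisons, so the comparisons share a library. On scaled peaks 4 of the 7 divided-only regions remained by shared regions and 3 by background. Over all regions the divided-only count went from 5586 to 3859 by shared regions and to 3097 by background. Those 2 counts are 6.72% and 5.39% of all regions.

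Undivided against polyclonal cells compared transgenic cells that had kept their dye with the endogenous pool. Here 1 of 74 regions (1.35%) was one-sided for undivided cells, beside 4.54% of all regions. For polyclonal cells 3 (4.05%) were one-sided, beside 6.74%. The undivided-side region was the upstream Runx1 region chr16:92899792-92900305, with a −log10 q of 16.4. The polyclonal-side regions were chr16:92803213-92803475 at Runx1, chr17:44557107-44557681 at Runx2 and chr4:135108652-135109138 at Runx3, with 30, 10 and 19 fragments in polyclonal cells. All 3 also had a peak in divided cells. Without the minimum −log10 q of 5, at the authors' threshold, 10 of the 74 regions were one-sided for undivided cells and 13 for polyclonal cells. Of all regions 10.3% and 14.6% were so, and the low share for undivided cells thus depended on the minimum.

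Regions called in all 3 libraries allow the pileups themselves to be compared. Over the 36 such member regions the median log2 scaled ratio of divided over undivided cells was −0.01, with quartiles of −0.32 and 0.35, beside quartiles of −0.27 and 0.29 over all 32680 shared regions. The median was 0.06 at Runx1, 0.48 at Runx2 and −0.01 at Runx3. Scaled by background, the median over all regions moved to −0.31 and those of Runx1, Runx2 and Runx3 to −0.25, 0.17 and −0.32, so the median of Runx2 was above 0 under both scalings and that of Runx1 changed sign. At Runx2 5 of 9 regions were above 0 when scaled by shared regions, with quartiles of −0.12 and 0.60, and 1 interval lay above 1 and 1 below. The counting interval lay above 1 in 4 member regions (11.1%), beside 7.77% of all regions, and below 1 in 7 (19.4%), beside 8.07%. With a rule of at least 2-fold, 1 member region was higher in divided cells and 2 were lower, beside 4.18% and 3.53% of all regions. Few member regions differed by this much. With intervals scaled by background, 1 member region (2.78%) lay above 1 and 12 (33.3%) below, beside 2.85% and 26.2% of all regions, so which regions passed depended on the scaling.

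The regions whose interval excluded 1 were picked out after their values were seen. The highest ratio was 39.5 kb past the end of Runx2 (chr17:44455651-44456484), with 33 fragments in divided cells, 8 in undivided cells and 12 in polyclonal cells. Its scaled ratio of divided over undivided was 3.42 (1.55 to 8.57), and divided over polyclonal 2.31 (1.16 to 4.92). At Runx1, the region 82.2 kb into the gene (chr16:92743623-92744305) had 50 fragments in divided cells, 21 in undivided cells and 37 in polyclonal cells, a scaled ratio of 1.97 over undivided cells. The Runx1 region 7.3 kb into the gene (chr16:92818510-92818908) had 96 in divided cells, 45 in undivided cells and 61 in polyclonal cells, a ratio of 1.77. Together with Runx1 P2 these are the 4 regions above 1, and of them the Runx2 region kept an interval above 1 when scaled by background (1.25 to 6.91).

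The 7 regions below 1 were 4 at Runx1, 1 at Runx2 and 2 at Runx3. The lowest ratio lay 5.0 kb upstream of Runx3 (chr4:135115069-135115798), where divided cells had 14 fragments, undivided cells 33 and polyclonal cells 22, a scaled ratio of divided over undivided of 0.352 (0.174 to 0.676). The summit there was at base 135115204 in divided cells, against 135115603 in undivided and 135115601 in polyclonal cells, so these values too are not from the same base. The Runx1 region 58.1 kb upstream (chr16:92883897-92884539) had 20 fragments in divided cells, 40 in undivided cells and 25 in polyclonal cells, a ratio of 0.415 (0.230 to 0.726). The Runx1 region 4.1 kb into the gene (chr16:92821751-92822316), near P1, had 109 in divided cells, 139 in undivided cells and 116 in polyclonal cells, a ratio of 0.650. It is the next region to the one with a ratio of 1.77, so neighbouring Runx1 regions differed in opposite directions. The Runx1 region at chr16:92641023-92641538 had 76 fragments in divided cells, 91 in undivided cells and 91 in polyclonal cells, and ratios of 0.693 over undivided and 0.702 over polyclonal cells. The Runx1 P1, Runx2 and Runx3 regions given above complete the 7.

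**Figure D4:**
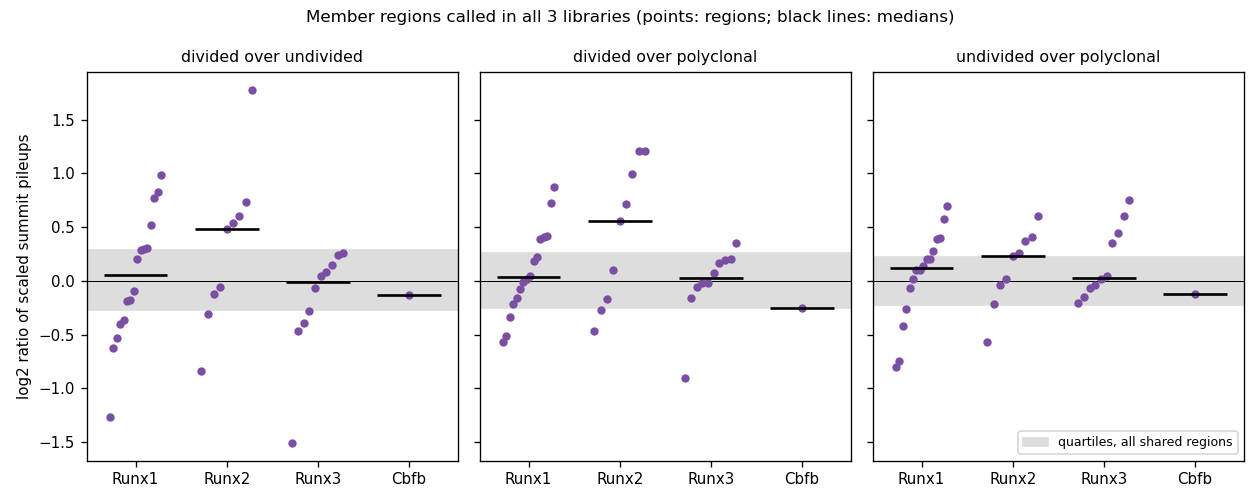
Log2 scaled pileup ratio of every member region called in all 3 libraries, by gene and comparison, with the quartiles of all 32680 shared regions as a band. In divided over undivided cells the points run from −1.51 at Runx3 to 1.77 at Runx2, and 5 of 9 Runx2 points stand above 0.

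Divided over polyclonal cells were compared in the same way. The median log2 scaled ratio over the 36 regions was 0.06, and 0.03 at Runx1, 0.56 at Runx2 and 0.02 at Runx3. Scaled by background the median over all regions was −0.23 and that of Runx2 0.33. The interval lay above 1 in 3 regions (8.33%), beside 6.18% of all regions, and below 1 in 1 (2.78%), beside 5.69%. The 3 were Runx1 P2, the downstream Runx2 region and chr16:92620665-92621516 in Runx1, which had 37 fragments in divided cells, 25 in undivided cells and 17 in polyclonal cells. Scaled by background, 0 lay above 1 and 8 (22.2%) below, beside 2.21% and 18.4% of all regions. By the 2-fold rule 2 regions were higher, beside 2.49%, and 0 lower, beside 2.31%. Both 2-fold regions belonged to Runx2: the downstream one given above and chr17:44625951-44626560, with 22 fragments in divided cells, 12 in undivided cells and 8 in polyclonal cells. For undivided over polyclonal cells the median was 0.10 and 23 of 36 regions (63.9%) were above 0, beside 49.98% of all regions. Scaled by background the median was 0.19 over the members and 0.08 over all regions. A single region, chr4:135155503-135155741 in Runx3, had an interval above 1, at 1.68 (1.14 to 2.50), with 67 fragments in divided cells, 73 in undivided cells and 44 in polyclonal cells. That is 2.78% of the member regions, beside 3.08% of all regions, and 0 had an interval below 1, beside 3.13%. Scaled by background, 6 (16.7%) lay above 1 and 0 below, beside 5.46% and 1.79% of all regions. By the 2-fold rule 0 were higher in undivided cells, beside 1.21% of all regions, and 0 were lower, beside 1.62%.

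Cofactors and target genes of RUNX proteins were described as lists, by the same one-sided counts. The 17 cofactor genes held 156 regions, of which 19 (12.2%) were divided-only and 5 (3.21%) undivided-only, beside 12.4% and 4.94% of all regions. Of these genes, 8 had more divided-only regions, 1 had more undivided-only regions and 8 had equal numbers. The first 2 are 47.1% and 5.88% of the list, beside 25.6% and 8.18% of all genes with a region, whose median gene has 2 regions. Hipk2, a kinase that phosphorylates RUNX1, had 4 divided-only and 0 undivided-only regions, and Smad3, a TGF-β signal transducer that binds RUNX proteins, had 4 divided-only and 1 undivided-only. Against polyclonal cells the list had 17 divided-only (10.9%) and 7 polyclonal-only regions (4.49%), beside 9.72% and 4.99% of all regions. There both Ets1, which binds DNA together with RUNX1, and Smad3 each had 4 divided-only and 0 polyclonal-only regions. Between undivided and polyclonal cells the list had 5 undivided-only (3.21%) and 8 polyclonal-only regions (5.13%), beside 4.54% and 6.74%, with 0 undivided-only and 2 polyclonal-only at both Hipk2 and Tle3, a Groucho-type corepressor. By region the cofactor list thus lay near the background. The median net count per gene was 0 in the list and over all genes in each comparison.

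The 25 genes listed as bound or regulated by RUNX proteins in T cells held 186 regions, with 24 divided-only (12.9%) and 10 undivided-only (5.38%), beside 12.4% and 4.94% of all regions. More divided-only regions were found at 10 genes (40%, beside 25.6% of all genes), more undivided-only regions at 4 (16.0%, beside 8.18%) and equal numbers at 11. Ifng, the Th1 cytokine gene that RUNX3 and T-bet activate, had 9 divided-only and 0 undivided-only of its 20 regions, and 8 divided-only and 1 polyclonal-only against polyclonal cells. Cd3e, a subunit of the T cell receptor complex, had 1 divided-only and 3 undivided-only regions, and Il2, a cytokine gene with the same net size, had 2 divided-only and 0 undivided-only. Against polyclonal cells the list had 18 divided-only (9.68%) and 11 polyclonal-only regions (5.91%), beside 9.72% and 4.99% of all regions, with 0 divided-only and 4 polyclonal-only at Eomes, a T-box factor of effector cells. Between undivided and polyclonal cells it had 9 undivided-only (4.84%) and 13 polyclonal-only regions (6.99%), beside 4.54% and 6.74%. Of 4 genes tied there, Eomes, Cd3e and Ifng had 0 undivided-only and 2 polyclonal-only, and Satb1, a chromatin organiser, had 2 undivided-only and 0 polyclonal-only. By region the shares of the whole list were near those of all regions.

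Genes with the most similar presence over the 3 libraries were looked up among the 3613 genes with at least 5 regions, by the sum of absolute differences between counts in the 7 possible presence patterns. Runx1 was closest to Sema4d, Atp10a and Ripor2, each with a sum of 5. Runx2 was closest to Vps13d at 2, and Nek7 and Ano10 at 3. Runx3 was closest to Tmem154 and Ccdc162 at 2 and Fam169b at 3. Cbfb had fewer than 5 regions and was not compared. These are 3 libraries and counts of regions only.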

How the data were processed

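ATAC-seq peak lists of divided, undivided and polyclonal CD4+ T cells were analysed, 1 list per fraction. MACS2 2.1.0, Bowtie2 2.3.2, Trimmomatic 0.33, cutadapt 1.12, bcl2fastq 2.17, SAMtools, Picard and the build mm10 are named, per the submitters' processing notes. No source used here says how the duplicate pools were joined or whether read ends were moved to correct for the transposase. The deposited lists give, for each peak, a score, a linear ratio (fold) of signal to local background, the −log10 p-value, the −log10 q-value and the summit offset, all made by the authors. The lowest deposited −log10 q was 1.31 for divided cells and 1.30 for both undivided and polyclonal cells.

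The lists hold no read totals. The summit pileup was recovered by solving for a pileup and a background whose ratio, each plus 1, is the deposited fold and whose Poisson upper tail is the deposited −log10 p. It came out whole within 0.001 in 99.96% (divided), 99.97% (undivided) and 99.98% (polyclonal) of peaks. Where a library had several peaks in a region, the peak of highest −log10 q was used. Peaks sharing at least 1 bp were merged, and a region was given to the nearest of 21887 protein-coding gene spans of RefSeq GRCm38.p6, the assembly of mm10, within 100 kb. Ties went to every nearest gene (1922 regions), and 3022 regions had no gene. Ratios of pileups were divided by the median over the 32680 regions called in all 3 libraries and have exact conditional 95% intervals (Clopper-Pearson). Pileup intervals are exact Poisson, and the intervals of pileups and ratios cover counting error only. The Wilson interval of the share called in all 3 libraries treats regions as independent. Python 3.11.15, numpy 2.4.6, pandas 2.3.3, scipy 1.17.1 and matplotlib 3.10.9 were used, and the recovery, merging and ratios were tested on simulated data.

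Named were the regions within 1 kb of either end of a span, the 3 of highest −log10 q per gene, up to 5 one-sided regions per gene and direction, the 3 genes most alike in presence, and the 2 genes of largest absolute net one-sided count per list and comparison, with tied genes of the T cell list added later. The regions named for ratio intervals, and the P2 regions, were added after their values were seen. The members and lists were chosen with earlier results of these data known. Alternatives were the minimum −log10 q, the merging overlap, the distance rule, the scaling and the unscaled fold. Leaving out regions that another gene also spans, applying the minimum to scaled peaks, and counting intervals scaled by background, were added after seeing the data. The planned protein description was not run, since no protein table was used here, and no sequence of the peaks themselves was used.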

Additional observations from a re-analysis of the deposited data

How the results depend on the processing

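Of 78 alternative values of the 9 counts and medians, 56 stayed within the set range and 22 moved. At the authors' own threshold the one-sided member regions numbered 19 for divided and 9 for undivided cells, 16 for divided and 9 for polyclonal cells, and 10 for undivided and 13 for polyclonal cells. At a −log10 q of at least 10 they numbered 4 for divided and 0 for undivided cells, beside 4.86% and 1.6% of all regions. They numbered 2 for divided and 1 for polyclonal cells, beside 3.01% and 1.38%, with 1 for polyclonal cells against undivided cells, beside 1.76%. These follow from a looser or stricter minimum. With members limited to 20 kb the divided-only count against polyclonal cells was 4, and the undivided-only count against polyclonal cells was 0. Inside gene spans the divided-only count was 7 against undivided and 4 against polyclonal cells, and the undivided-only count against polyclonal cells was 0. These rules kept 60 and 52 of the 74 regions, and no matching share over all regions was computed for them. With the minimum applied to scaled peaks, an alternative added after seeing the data, divided-only regions against polyclonal cells numbered 4 by shared regions and 3 by background. The median log2 ratio of divided over undivided cells was −0.32 scaled by background and −0.20 as the unscaled fold, and that of divided over polyclonal cells was −0.17 scaled by background and −0.060 as the unscaled fold. Background scaling shifts every region by the same amount, here −0.31 and −0.23, so these changes say nothing about the members in particular. For the unscaled fold the cause was not tested. Leaving out the regions that another gene also spans, also added after seeing the data, kept 72 regions and moved no count past the set range. No paired analysis was possible because there was 1 list per fraction with no replicate numbers, and no replicate could be left out. Depth limits what a missing peak means: no peak had a pileup under 6 in divided or 5 in undivided and polyclonal cells.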
